A study of Mus musculus with 28 samples.

Results

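The comparison described here is that of sorted with crude synaptosomes from a sucrose gradient preparation of mouse brain. It was taken as the 3 libraries labelled sorted and the 3 labelled crude for that preparation, which are 6 of the 28 libraries of the series, and same-numbered libraries were treated as pairs. The other libraries are 10 sorted and 10 crude ones of a preparation that the labels name SynSURF, used here in 1 test, and 2 of total RNA from sorted SynSURF particles, not analysed here. Every library was made from brain tissue of Mus musculus, labelled as synaptosome and as primary neurons. The labels used here give no strain, sex, age, genotype or treatment, and do not say whether replicates came from separate animals, so the p-values cover only how far these libraries vary, which may be technical variation. About 30000000 sorted particles were suspended in 10 µL of the reducing agent TCEP, against about 15000000 particles of a crude pellet in 10 µL of PBS. Sorting therefore cannot be told apart from the buffer or the amount of input. RNA of both kinds was amplified with a whole-transcriptome kit before poly(A) libraries were built.

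Synaptosomes are nerve terminals that tear off and reseal when brain tissue is homogenised, often with a patch of postsynaptic membrane attached. They hold synaptic vesicles, mitochondria and a local stock of mRNA that can be translated away from the cell body. A crude synaptosome pellet also carries myelin fragments, pieces of astrocyte processes and other membranes, and sorting of single particles is used to take synaptosomes out of that mixture.

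The sucrose gradient libraries were of similar complexity before and after sorting. Sorted libraries held 3018604, 5196050 and 3214961 counts, against 1844679, 6793374 and 1911669 counts in the crude libraries of the same pairs. At an equal depth of 1844679 counts, sorted libraries showed 13226 ± 172 genes and crude libraries 13062 ± 122 (SD, n = 3 pairs, higher in 2 of 3 pairs, exact sign-flip permutation test, two-sided, p = 0.5, adjusted over 5 measures 0.75). The smallest p that 3 pairs allow in that test is 0.25. Rn45s, the 45S ribosomal RNA unit, took 0.571%, 0.818% and 6.70% of the counts of sorted libraries, against 0.953%, 0.680% and 2.94% in crude libraries, so pair 3 stood above the other 2 pairs in both fractions. The widest 95% Wilson interval of these shares was 6.67% to 6.73%, for counting error only. Cytosolic ribosomal proteins together took 2.46% ± 0.395 in sorted and 2.90% ± 0.693 in crude libraries (SD, n = 3, higher in 1 of 3 pairs).

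The RNA of both fractions was that of neurons and glia together. Syt1, the calcium sensor of synaptic vesicle release, had 4147, 3139.9 and 2453 CPM in the sorted libraries of pairs 1 to 3, against 3259.7, 2920.1 and 1841 CPM in the crude ones. Slc1a2, the main glutamate transporter of astrocytes, had 12350.3, 18746 and 12380.4 CPM in sorted libraries, against 8476, 12375 and 9975 CPM in crude libraries. Mbp, the myelin basic protein, whose mRNA is carried into oligodendrocyte processes, had 2442, 4259 and 3989 CPM in sorted libraries, against 3011, 3779 and 6286 CPM in crude libraries. The glial mRNAs were thus present in every library, although the labels name the cell type as primary neurons. Cldn5, the tight junction protein that marks brain endothelium, had 0, 1.17 and 0.651 CPM in sorted libraries and 0, 0.881 and 0 CPM in crude libraries, too few counts to test. In these bulk libraries fewer particles of a type and less RNA per particle cannot be told apart.

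Across all genes, 1 gene passed the test. The paired edgeR quasi-likelihood test covered 10589 of the 24443 genes in the table, and at a Benjamini-Hochberg adjusted p under 0.05 it called 0 genes higher (0% of those tested) and 1 lower (0.00944%). The next smallest adjusted p was 0.230. Before adjustment, 558 genes (5.27%) had p under 0.05 with a higher level in sorted libraries and 381 (3.6%) with a lower one. The Wald test of DESeq2 with the same pairs called 45 genes higher (0.425%) and 21 lower (0.198%), and without the pairs edgeR called 0 in either direction and 324 had an unadjusted p under 0.05. The median standard error of the log2 fold change was 0.434 over all tested genes and 0.225 over the 309 genes with a mean of at least 500 CPM.

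The called gene was Pcdhga11, a member of the clustered gamma protocadherins, cell adhesion proteins of neurons that differ in their first exon and share their last ones. It had 0 counts in each of the 3 sorted libraries, against 115, 69 and 55 counts in the crude libraries, or 61.0, 10.1 and 30.2 CPM. With 3 counts summed over the sorted libraries as the upper limit that 0 allows for counting error, the pooled level was at least 86.0-fold lower. That limit leaves out the spread between libraries, so it does not bound the change. The gene was lower in 3 of 3 pairs (edgeR, adjusted p = 0.0354). Other isoforms of the cluster went other ways. Pcdhga12 had 5.05, 4.11 and 106 CPM in sorted libraries, against 2.65, 0 and 4.40 CPM in crude ones. Pcdhgb8 had 0, 55.4 and 35.5 CPM in sorted libraries, against 0, 6.61 and 0 CPM in crude ones. Of the 8 tested gamma isoforms, 3 were higher in 3 of 3 pairs and 1 was lower in 3 of 3, and their summed level was 72.8, 268 and 216 CPM in sorted against 82.2, 164 and 127 CPM in crude libraries. Since the isoforms share exons, how reads were divided among them depends on the authors' counting, which is not given in the sources used here. The call for Pcdhga11 was lost without the pairs (adjusted p = 0.246), without pair 2 (0.704) and with an offset for transcript GC content (0.0928).

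Directions within pairs were weakly shared. Sorted was above crude in 3 of 3 pairs for 1786 genes (16.9%), in 2 pairs for 3589, in 1 pair for 3441, and in none for 1773 (16.7%). The groups did not overlap with all sorted libraries on the upper side for 484 (4.57%) and on the lower side for 407 (3.84%). Across genes, the within-pair log2 ratios of one pair and another correlated at Pearson's r = 0.0824 (pairs 1 and 2), 0.0801 (pairs 1 and 3) and 0.141 (pairs 2 and 3). Among the 3761 genes with a mean of at least 50 CPM the same values were 0.133, 0.164 and 0.226. Genes are not independent replicates, and these values are a description. Of the summed squares of log2 CPM over all tested genes, the pair accounted for 56.8% on 2 degrees of freedom, sorted versus crude for 17.4% on 1 and the remainder for 25.9% on 2. Per degree of freedom these are 28.4%, 17.4% and 12.9%.

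**Figure D1:**
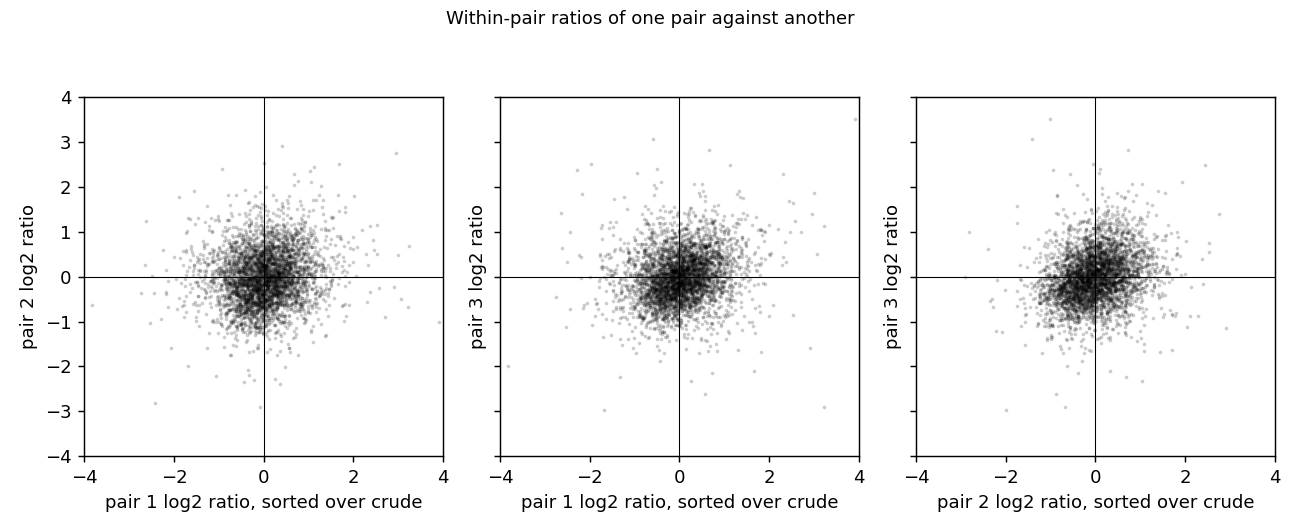
Within-pair log2 ratio of sorted over crude in one pair (x axis) against another pair (y axis) for the 3761 tested genes with a mean of at least 50 CPM, 1 point per gene. The clouds are nearly round, with r of 0.133, 0.164 and 0.226, and 8 genes lie outside the axes, which end at 4 on either side.

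Since 1 gene passed the test, the other genes named here were ordered by the smallest of their 3 within-pair ratios among genes of at least 50 CPM, and their values are a description. Brackets give the log2 fold change of sorted over crude ± SE from the paired edgeR fit, with its adjusted p where printed. The 10 that led the higher order are given first. Adgrb2, an adhesion G protein-coupled receptor of neurons, had 98.1, 168 and 27.0 CPM in the sorted libraries of pairs 1 to 3, against 12.2, 24.5 and 9.89 CPM in the crude ones (log2 fold change 2.46 ± 0.40, adjusted p = 0.23). Its 3 sorted libraries lay above all 3 crude ones. Bcan, the brain extracellular matrix proteoglycan brevican, had 67.8, 70.7 and 74.5 CPM in sorted libraries, against 37.1, 28.9 and 24.2 CPM in crude libraries (1.26 ± 0.34, adjusted p = 0.403). Lrp1, a large endocytic receptor for lipoproteins, had 159, 293 and 160.1 CPM in sorted libraries, against 84.9, 135 and 70.9 CPM in crude libraries (1.07 ± 0.25). Both showed no overlap of the groups. Map1a, a microtubule-associated protein of dendrites and axons, had 462, 531 and 351 CPM in sorted libraries, against 149, 283 and 157 CPM in crude libraries (1.23 ± 0.25), again without overlap. Nckipsd, an adaptor that binds actin regulators, had 92.7, 142 and 81.7 CPM in sorted libraries, against 33.4, 69.2 and 33.0 CPM in crude libraries (1.27 ± 0.29). Bcr, a regulator of small GTPases, had 248, 229.7 and 209.6 CPM in sorted libraries, against 53.6, 111 and 100.001 CPM in crude libraries (1.43 ± 0.30). Neither of these 2 genes showed overlap of the groups.

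Of the other 4 genes, Eif3k, a subunit of translation initiation factor 3, had 1603, 628 and 948 CPM in the sorted libraries of pairs 1 to 3, against 677, 178 and 475 CPM in the crude ones (1.35 ± 0.24, adjusted p = 0.289). It was above its crude partner in every pair, although the sorted library of pair 2 lay below the crude library of pair 1. Uqcr10, a subunit of respiratory complex III, had 201, 242 and 55.3 CPM in sorted libraries, against 92.3, 43.8 and 9.34 CPM in crude libraries (2.01 ± 0.35). Lrrc47, a leucine-rich repeat protein, had 267, 68.9 and 132 CPM in sorted libraries, against 45.6, 30.5 and 41.8 CPM in crude libraries (1.79 ± 0.33). Spats2l had 184, 77.5 and 98.3 CPM in sorted libraries, against 72.7, 28.9 and 25.8 CPM in crude libraries (1.55 ± 0.30). The adjusted p of these 10 ran between 0.230 and 0.403. The 10th, Bcan, had a smallest within-pair ratio of 0.86, and the next gene, Lztr1, of 0.85.

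The 10 genes of the lower order were Pcdhga11, described above, and 9 others. C1qc, a chain of complement C1q made by microglia, had 114, 27.6 and 28.6 CPM in the sorted libraries of pairs 1 to 3, against 657, 57.4 and 63.2 CPM in the crude ones (−1.59 ± 0.34, adjusted p = 0.32). The crude library of pair 1 stood far above the rest. Wwp1, a ubiquitin ligase, had 64.3, 49.2 and 100.2 CPM in sorted libraries, against 119.9, 148 and 181 CPM in crude libraries (−1.11 ± 0.28), without overlap. Ube2v2, a ubiquitin-conjugating enzyme variant, had 52.7, 21.1 and 67.0 CPM in sorted libraries, against 94.95, 39.5 and 128 CPM in crude libraries (−0.89 ± 0.30). C1d, a cofactor of the nuclear exosome, had 24.9, 16.6 and 37.7 CPM in sorted libraries, against 61.0, 50.8 and 109 CPM in crude libraries (−1.48 ± 0.33). For Ube2v2 and C1d the pairs also differed in level, so that the groups overlapped for Ube2v2 and not for C1d.

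Lrch4, a leucine-rich repeat membrane protein, had 12.6, 1.76 and 38.4 CPM in the sorted libraries of pairs 1 to 3, against 41.9, 8.66 and 305 CPM in the crude ones (−2.37 ± 0.37, adjusted p = 0.23). Its level differed far more between pairs than between the fractions of a pair. Mrpl36, a mitochondrial ribosomal protein, had 132, 16.3 and 103 CPM in sorted libraries, against 274, 77.1 and 241 CPM in crude libraries (−1.49 ± 0.30). Gng10, a G protein gamma subunit, had 58.6, 29.6 and 57.6 CPM in sorted libraries, against 130.5, 58.9 and 152 CPM in crude libraries (−1.18 ± 0.29). The groups overlapped for Mrpl36, and for Gng10 the highest sorted library lay just under the lowest crude one. Cacybp, the calcyclin-binding protein, had 59.3, 9.40 and 42.3 CPM in sorted libraries, against 171, 19.2 and 104 CPM in crude libraries (−1.29 ± 0.31). Fam103a1 had 57.1, 32.3 and 68.3 CPM in sorted libraries, against 125, 63.4 and 142 CPM in crude libraries (−1.05 ± 0.28). The adjusted p of the 9 genes other than Pcdhga11 ran between 0.230 and 0.493, and the first gene left out was Rab18, with a smallest ratio of 0.84 in size.

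**Figure D2:**
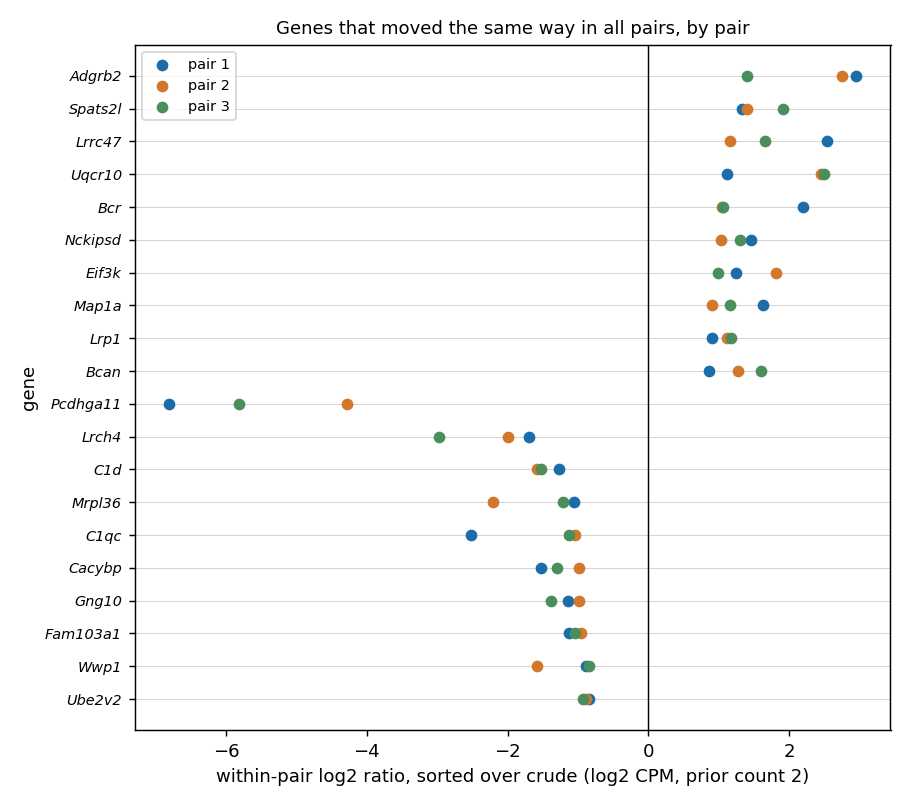
Within-pair log2 ratio of sorted over crude (x axis) for the 10 named higher and 10 named lower genes (y axis), 1 point per pair. All 3 points of each gene lie on the same side of 0 because the genes were ordered that way, and Pcdhga11, with 0 counts in every sorted library, lies farthest from 0.

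DESeq2 called 9 of those 10 higher and 8 of those 10 lower genes from the same libraries. Outside that order, the called genes of highest mean CPM in each direction were taken after their values were seen. Psap, the precursor of lysosomal saposins, had 1149, 2563 and 756 CPM in the sorted libraries of pairs 1 to 3, against 447, 1202 and 520.3 CPM in the crude ones (0.999 ± 0.23, adjusted p = 0.343, and 0.044 by DESeq2). Dync1h1, the heavy chain of the cytoplasmic dynein motor, had 920.4, 876 and 413 CPM in sorted libraries, against 289, 249 and 291 CPM in crude libraries (1.34 ± 0.29, adjusted p = 0.332, and 0.00982 by DESeq2). Among those lower, Tpt1, the translationally controlled tumour protein, had 526, 384 and 600.4 CPM in sorted libraries, against 1491, 590.1 and 1166 CPM in crude libraries (−1.03 ± 0.24, adjusted p = 0.343, and 0.0335 by DESeq2). H3f3a, which encodes histone H3.3, had 356, 308 and 556 CPM in sorted libraries, against 972, 659 and 758 CPM in crude libraries (−0.999 ± 0.25, adjusted p = 0.368, and 0.0474 by DESeq2). Emc7, a subunit of the endoplasmic reticulum membrane complex, had 171, 105 and 60.5 CPM in sorted libraries, against 337, 173 and 199 CPM in crude libraries (−1.13 ± 0.28, adjusted p = 0.352, and 0.0377 by DESeq2). The first adjusted p of each is that of edgeR, under which none passed.

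No synaptic gene list held a called gene, and the medians of the 5 pre- and postsynaptic and receptor lists lay between −0.02 and 0.35. For the synaptic vesicle and fusion machinery, 37 of 39 members were tested and 0 were called. Their median log2 fold change was 0.18, against 0.02 over all tested genes, with medians of 0.02, 0.30 and 0.07 in pairs 1, 2 and 3. The fitted median was 0.08 without pair 2. In 3 of 3 pairs, 11 of the 37 were higher and 5 lower. Over all tested genes 16.9% were higher in 3 of 3 pairs and 16.7% lower. The counts of members in this and the following lists are to be read against those shares. Snap25, a SNARE protein of vesicle fusion, had 1245, 1323 and 1814 CPM in the sorted libraries of pairs 1 to 3, against 1802, 2809 and 2580.2 CPM in the crude ones (−0.71 ± 0.21, adjusted p = 0.462). It was lower in 3 of 3 pairs. Syt1 was higher in 3 of 3 (0.29 ± 0.20, adjusted p = 0.668), and Syt11, a related synaptotagmin, gave −0.16 ± 0.20. Vamp2, the vesicle SNARE, had 227, 296 and 347 CPM in sorted libraries, against 301, 248 and 607 CPM in crude libraries, and Syn1, synapsin 1, had 107, 117 and 156 CPM in sorted libraries, against 164, 68.4 and 128 CPM in crude libraries. Both were higher in some pairs and lower in others.

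Genes of the postsynaptic density (28 of 29 tested, 0 called) had a median of 0.35, with 0.40, 0.22 and 0.39 in pairs 1 to 3. With 1 pair left out the median ran between 0.24 and 0.32. In 3 of 3 pairs, 10 members were higher and 3 lower. Camk2a, the calcium/calmodulin-dependent kinase whose mRNA is carried into dendrites, had 928, 1269 and 696 CPM in the sorted libraries of pairs 1 to 3, against 367, 981 and 433 CPM in the crude ones (0.80 ± 0.24, adjusted p = 0.472). Dlg4, the scaffold PSD-95, had 21.1, 50.1 and 19.8 CPM in sorted libraries, against 1.06, 40.5 and 10.4 CPM in crude libraries (1.39 ± 0.64), low levels that rested on 2 counts in the crude library of pair 1. Dlgap1, which binds that scaffold, gave 0.15 ± 0.23. The mRNAs known for dendritic or axonal localisation (22 of 23 tested, 0 called) had a median of 0.21, with 9 higher and 2 lower in 3 of 3 pairs. Among them Map2, the dendritic microtubule-associated protein, gave 0.14 ± 0.19. The sums of these lists behaved differently from their medians. Summed over the postsynaptic members, the log2 ratio of sorted over crude was 0.36, −0.07 and 0.07 in pairs 1 to 3.

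In the fit of all 3 pairs, receptor lists lay near the median of all genes. Glutamate receptors (22 of 24 tested, 0 called) had a median of 0.06, with 5 higher and 3 lower in 3 of 3 pairs. That fitted median ran between 0.02 and 0.24 with 1 pair left out, and was −0.09 without the replicate block. Gria2, an AMPA receptor subunit, had 815, 601 and 502 CPM in sorted libraries, against 1082, 991 and 571 CPM in crude libraries (−0.44 ± 0.22, adjusted p = 0.585). The summed level of the glutamate receptors was lower in sorted libraries in 3 of 3 pairs, whereas the median was higher in 3 of 3. The GABAergic list (21 of 22 tested, 0 called) had a median of −0.02, with 2 higher and 4 lower. Gad1, which makes GABA, had 548, 355 and 342 CPM in sorted libraries, against 379.8, 199 and 397 CPM in crude libraries. Slc17a7, the vesicular glutamate transporter VGLUT1, had 78.5, 178 and 65.1 CPM in sorted libraries, against 67.9, 158 and 24.2 CPM in crude libraries (0.57 ± 0.32). For the presynaptic active zone (20 of 20 tested, 0 called) the median was 0.18, with 7 higher and 4 lower. For activity-regulated early genes (18 of 20 tested, 0 called) the median was −0.06, with 2 higher and 5 lower, and Arc, a member whose mRNA reaches dendrites, gave −0.19 ± 0.35.

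Glial lists pointed in different directions. Astrocyte markers (22 of 22 tested, 0 called) had a median of 0.09 (0.048 to 0.20 with 1 pair left out), with 8 higher and 4 lower in 3 of 3 pairs. At an unadjusted p under 0.05 in edgeR, 6 were higher and 0 lower, against 5.27% and 3.6% of all tested genes. The list's summed level was higher in sorted libraries of every pair, by log2 ratios of 0.19, 0.37 and 0.18. Slc1a2 alone made up 12350, 18746 and 12380 CPM of sums of 32203, 39819 and 30174 CPM in sorted libraries. In crude libraries it made up 8476, 12375 and 9975 CPM of 28282, 30822 and 26616 CPM. The sum thus depended strongly on that gene. Slc1a2 gave 0.48 ± 0.18, adjusted p = 0.516, and Gfap, the astrocyte intermediate filament, had 178, 206 and 139 CPM in sorted libraries, against 96.5, 114 and 113 CPM in crude libraries (0.68 ± 0.27, adjusted p = 0.522), without overlap. Aqp4, the astrocyte water channel, had 206, 103 and 212 CPM in sorted libraries, against 171, 240.2 and 220.3 CPM in crude libraries, and Sparcl1, a secreted astrocyte protein, gave 0.01 ± 0.20. Aqp4 was thus on the other side of 0 from Slc1a2 and Gfap in pairs 2 and 3.

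Microglia markers had a median of −0.51, against 0.02 over all tested genes. It was −0.31 without pair 1 and −0.25 with no filter on low counts. Of 18 members 16 were tested and 0 called, with 1 higher and 7 lower in 3 of 3 pairs. At an unadjusted p under 0.05 in edgeR, 5 were lower and 1 higher, against 3.6% and 5.27% of all tested genes. Summed, the list gave 939, 429 and 898 CPM in sorted libraries, against 1642, 624 and 1033 CPM in crude libraries. C1qc alone made up 657 CPM of the highest sum. Cx3cr1, the fractalkine receptor of microglia, had 16.7, 11.2 and 8.13 CPM in sorted libraries, against 12.7, 2.06 and 22.5 CPM in crude libraries, at few counts. Myelin and oligodendrocyte genes (25 of 26 tested, 0 called) had a median of −0.26 (−0.40 without pair 2), with 3 higher and 11 lower in 3 of 3 pairs. Their summed log2 ratios were −0.14, 0.10 and −0.64, so that the list sum was above its crude partner in pair 2. Mbp gave −0.26 ± 0.21, adjusted p = 0.722. Mobp, another myelin protein, had 66.2, 45.0 and 58.9 CPM in sorted libraries, against 95.5, 44.2 and 71.4 CPM in crude libraries. For Mbp the crude library of pair 3 was the highest, and for Mobp that of pair 1.

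Vessel, blood and ventricle markers were sparse. Of 20 endothelial and mural genes 7 were tested, of 7 red blood cell genes 2, and of 10 choroid plexus and ependymal genes 5, with 0 called in each. Ttr, transthyretin of the choroid plexus, had 745, 517 and 300.3 CPM in sorted libraries, against 1591, 521 and 281 CPM in crude libraries, and the crude library of pair 1 was the highest. Oligodendrocyte precursor genes (7 of 8 tested, 0 called) had medians of −0.10, 1.01 and 0.07 in pairs 1 to 3.

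**Figure D3:**
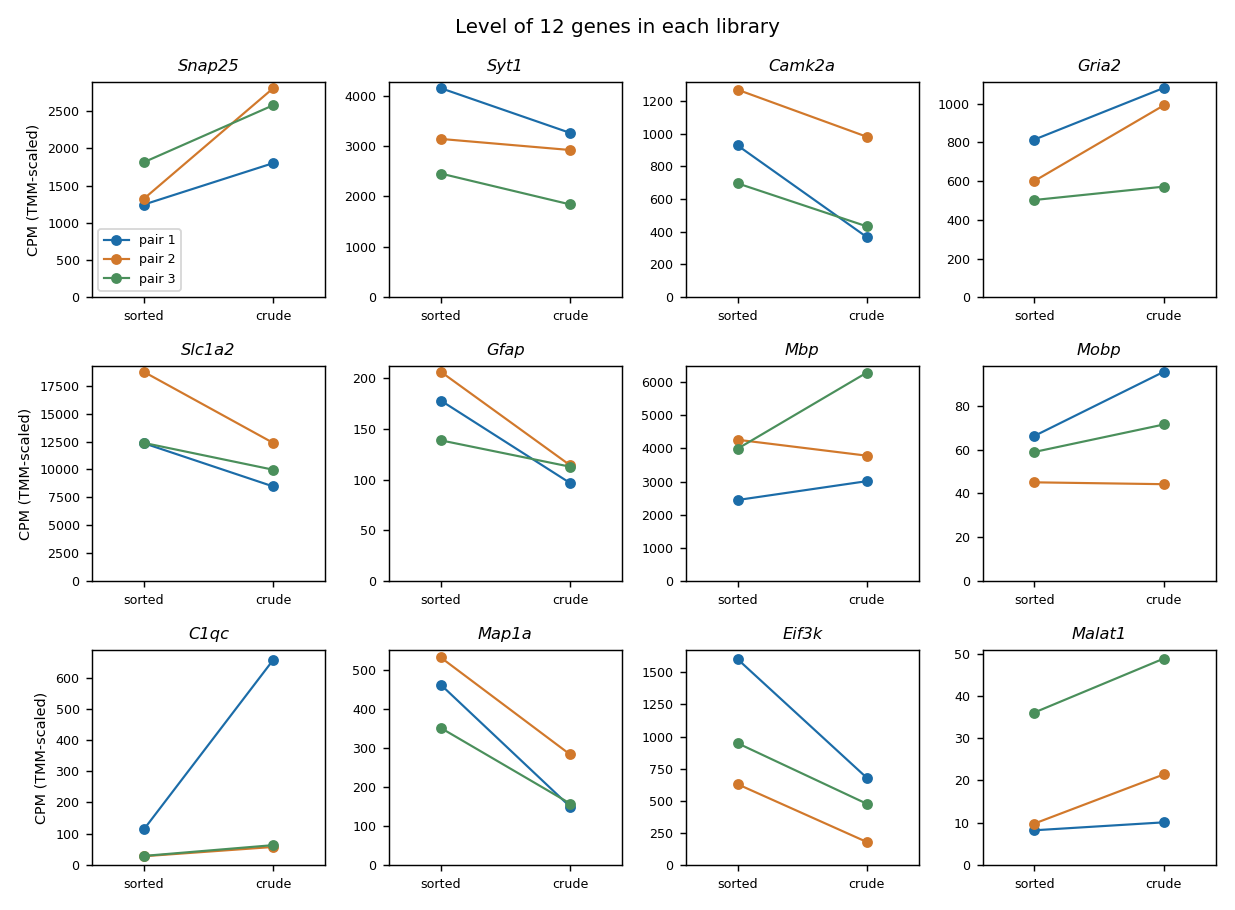
Level of 12 of the named genes in TMM-scaled CPM (y axis, from 0) in sorted (left) and crude (right) libraries, with a line for each pair. Snap25, Gria2 and Malat1 are lower in sorted libraries in all 3 pairs and Camk2a, Gfap and Map1a are higher, while the spread between pairs is often as wide as the difference.

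The lists of nuclear proteins and nuclear RNAs had medians on the lower side in every pair, with 0 members called. The splicing and nuclear RNA-binding proteins (37 of 37 tested, 0 called) had a median of −0.29, with −0.27, −0.60 and −0.40 in pairs 1 to 3. Without pair 1 the median was −0.46. In 3 of 3 pairs 0 members were higher and 15 lower, against 16.9% and 16.7% of all tested genes. The list's median GC content was 43.3%. In the lowest quartile of GC content, described below, 6.26% of genes were higher in 3 of 3 pairs and 31.7% lower. An unadjusted p under 0.05 in edgeR with a lower level was found for 4 members, against 3.6% of all tested genes. The 2 members of highest mean CPM were not among the 15 lower ones. Sf3b1, a splicing factor subunit, gave 0.15 ± 0.23 and Hnrnpa3, an hnRNP protein, gave −0.15 ± 0.24. Nuclear non-coding RNAs (8 of 12 tested, 0 called) had a median of −0.39 (−0.18 with no filter on low counts), with 0 higher and 4 lower. Malat1, a nuclear-retained long non-coding RNA, had 8.20, 9.79 and 36.1 CPM in the sorted libraries of pairs 1 to 3, against 10.1, 21.4 and 48.9 CPM in the crude ones (−0.64 ± 0.44, adjusted p = 0.675), and was lower in 3 of 3 pairs. Meg3 had 27.1, 22.3 and 89.5 CPM in sorted libraries, against 38.7, 29.2 and 123 CPM in crude libraries (−0.45 ± 0.32), also lower in each pair, and Rian, from the same imprinted region, had 40.7, 62.7 and 33.8 CPM in sorted libraries, against 34.5, 84.4 and 57.1 CPM in crude libraries.

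Respiratory and ribosomal protein genes had low medians in pair 1 and medians near or above 0 in the other 2 pairs. The nuclear-encoded oxidative phosphorylation subunits (74 of 74 tested, 0 called) had a median of −0.23, made up of −0.69 in pair 1, 0.24 in pair 2 and 0.08 in pair 3. Cytosolic ribosomal proteins (81 of 85 tested, 0 called) had −0.87, 0.20 and −0.04 in the 3 pairs. Without pair 1 the fitted medians were 0.095 for the respiratory and 0.11 for the ribosomal list. Cox4i1, a cytochrome oxidase subunit, had 3199.8, 2462 and 1969 CPM in sorted libraries, against 4587, 1601 and 3417 CPM in crude libraries, Rpl27 had 1303, 3045 and 3209 CPM in sorted libraries, against 1949, 4783 and 2772 CPM in crude libraries, and Rplp1, of the ribosomal stalk, gave −0.37 ± 0.23. Atp5a1, the respiratory gene next to Cox4i1 in mean CPM, had a fitted change above 0. Ribosomal protein genes have many near-identical processed copies, so their counts depend on how such reads were assigned. Mitochondrial ribosomal proteins (74 of 76 tested, 0 called) had medians of −0.28, 0.08 and 0.05.

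Glycolytic enzymes were the list with 6 higher and 0 lower members in 3 of 3 pairs (16 of 16 tested, 0 called). Their median was 0.24, with 0.06, 0.57 and 0.48 in pairs 1 to 3, and 0.43 without pair 1. Tpi1, triose phosphate isomerase, had 1130.4, 794 and 1507 CPM in sorted libraries, against 921, 351 and 558 CPM in crude libraries (0.97 ± 0.26, adjusted p = 0.403), and Gapdh, glyceraldehyde phosphate dehydrogenase, gave 0.28 ± 0.21. Cytosolic chaperones (23 of 24 tested, 0 called) had a median of 0.23, with 0.18, 0.38 and −0.03 in pairs 1 to 3. The fitted median was 0.07 without pair 1 and 0.0073 without pair 2. Hsp90ab1, a constitutive HSP90, had 985, 3269 and 1238 CPM in sorted libraries, against 567, 2503 and 729.7 CPM in crude libraries (0.65 ± 0.21, adjusted p = 0.479). Hsp90aa1, the chaperone next to it in mean CPM, had a fitted change below 0. Motor proteins and adaptors (26 of 26 tested, 0 called) had a median of 0.17 (0.037 without pair 2) with 9 higher and 5 lower, and Kif5b, a kinesin-1 heavy chain, had 957, 1089 and 1927 CPM in sorted libraries, against 1098, 1616 and 4206 CPM in crude libraries (−0.63 ± 0.23), lower in each pair. Kif1b, the motor gene of highest mean CPM, had a fitted change above 0. Translation factors (33 of 33 tested, 0 called) had a median of 0.08 (−0.033 without pair 2), and Eef1a1, an elongation factor, gave 0.17 ± 0.20. Proteins of mRNA transport granules (25 of 29 tested, 0 called) had a median of −0.08, with 3 higher and 7 lower. Of the ion pumps (25 of 25 tested, 0 called), 9 were higher and 8 lower. The cytoskeleton list (32 of 32 tested, 0 called) had a median of 0.07 and the proteasome list (31 of 31 tested, 0 called) of −0.16. Actb, beta-actin, gave 0.39 ± 0.23, while Actg1, of higher mean CPM, had a fitted change below 0. Fth1, the ferritin heavy chain, had 4169.8, 2677 and 3639 CPM in sorted libraries, against 7540.4, 2724 and 7423 CPM in crude libraries (−0.64 ± 0.23).

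**Figure D4:**
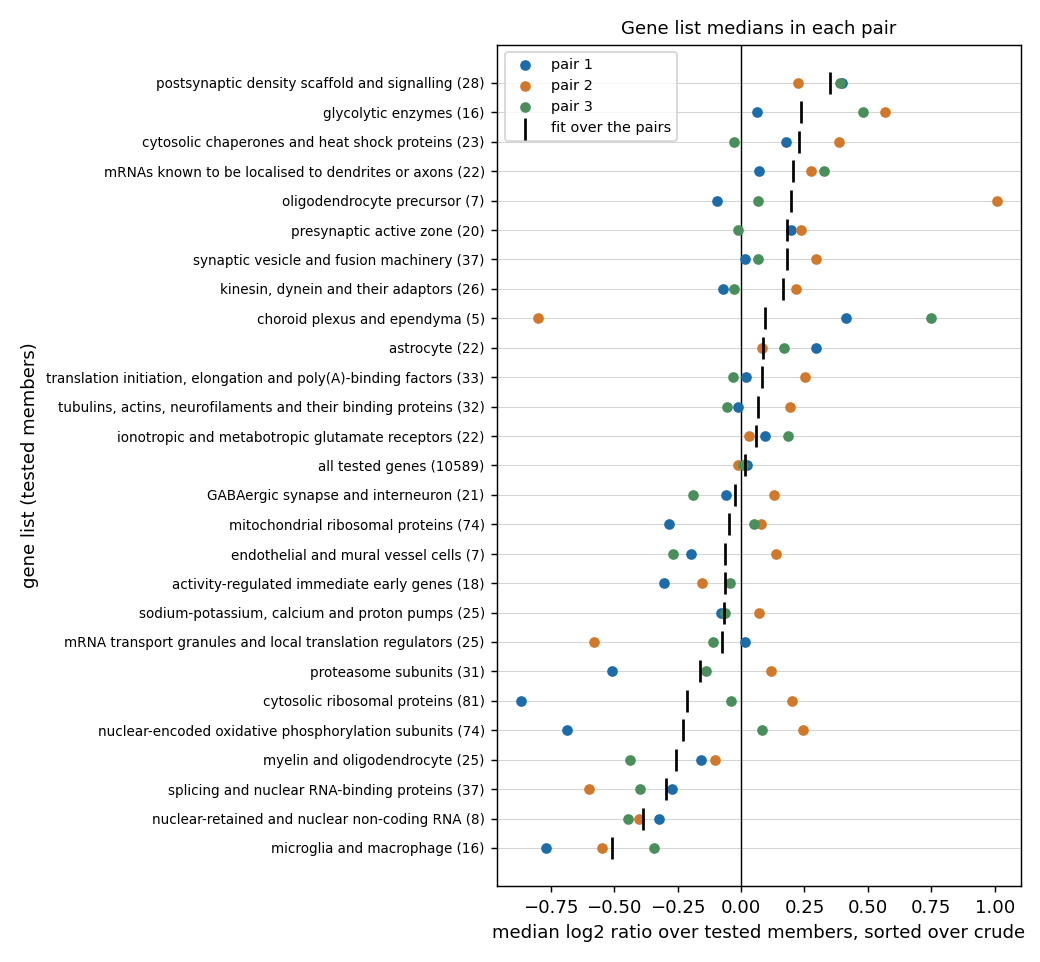
Median log2 ratio of sorted over crude (x axis) over the tested members of each gene list with at least 5 of them (y axis, number tested in brackets), by pair (points) and for the fit over the pairs (bars). Of all 27 lists, 6 have medians above 0 in every pair, 5 below 0 in every pair and 16 on both sides.

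Within-pair ratios followed a gradient with base composition in each of the 3 pairs. For 10292 of the tested genes (97.2%) a transcript with the same symbol was found in GENCODE M21 (GRCm38), and the GC content of the longest one was used. The median log2 fold change was −0.25 in the lowest quartile of GC content (31.0% to 44.6%), −0.03 in the second, 0.12 in the third and 0.26 in the highest (54.0% to 71.3%). The highest quartile exceeded the lowest by 0.34, 0.55 and 0.59 in the median within-pair ratio of pairs 1, 2 and 3, a mean of 0.494 ± 0.134 (SD, n = 3 pairs, exact sign-flip permutation test, two-sided, p = 0.25, the smallest possible). In the lowest quartile 31.7% of genes were lower in 3 of 3 pairs and 6.26% higher, and in the highest quartile 7.54% were lower and 26.2% higher, against 16.7% and 16.9% over all tested genes. Genes do not vary independently, and the gap was not tested across genes.

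The gap was there among long and short transcripts alike. Among transcripts longer than the median, the median log2 fold change was −0.20 in the lowest and 0.37 in the highest GC quartile, and among the shorter ones −0.37 and 0.20. By length itself, the median in the shortest quartile was −0.19 in pair 1, 0.00048 in pair 2 and 0.0049 in pair 3. Without regard to GC content, a length gradient was thus a feature of pair 1. Within each GC quartile, however, the longer transcripts had the higher median in the fit over the pairs. In the second quartile it was 0.04 against −0.12, and in the third 0.20 against 0.04. Taken per library, as deviation of each gene from its mean over the 6 libraries, the highest quartile stood above the lowest by −0.01, 0.96 and −0.16 in sorted libraries, against −0.37, 0.34 and −0.78 in the crude libraries of the same pairs. Each sorted library exceeded its crude partner, but the crude library of pair 2 exceeded the sorted libraries of pairs 1 and 3.

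**Figure D5:**
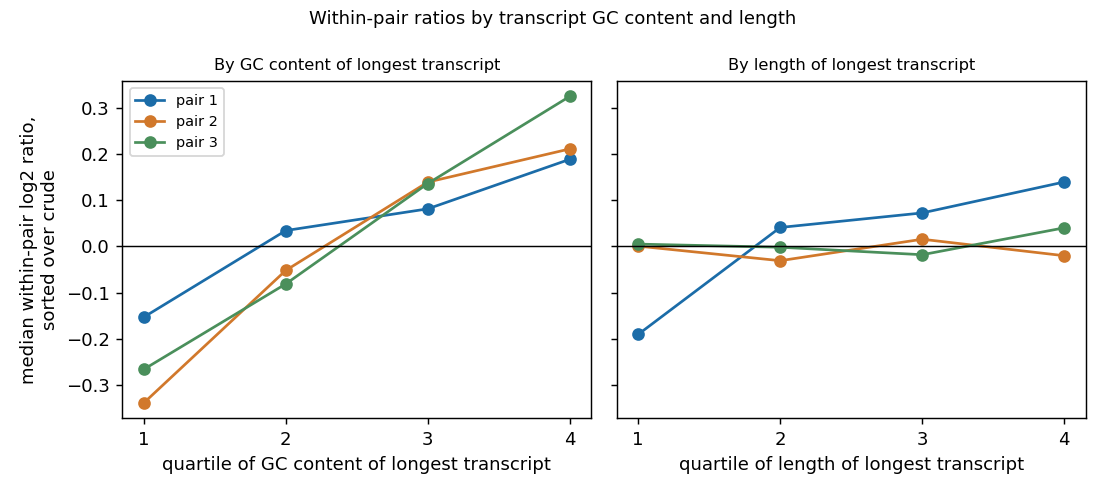
Median within-pair log2 ratio of sorted over crude (y axis) by quartile of the GC content (left) and of the length (right) of the longest transcript, with a line for each pair. In all 3 pairs the ratio is below 0 in the lowest GC quartile and above 0 in the highest. The length quartiles, taken without regard to GC content, set apart pair 1 only.

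Stretches of coding sequence from the extremes among the named genes show what such a difference in composition looks like. They are the 2 genes of highest GC content among the 10 named higher and the 2 of lowest among the 10 named lower, chosen for that content, each as 90 bases from the middle of the coding sequence, 5′ to 3′, with G and C in capitals (GENCODE M21, GRCm38).
Adgrb2: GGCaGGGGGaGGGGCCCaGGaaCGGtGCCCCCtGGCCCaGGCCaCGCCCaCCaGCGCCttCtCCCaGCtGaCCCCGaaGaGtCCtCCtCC
Bcan: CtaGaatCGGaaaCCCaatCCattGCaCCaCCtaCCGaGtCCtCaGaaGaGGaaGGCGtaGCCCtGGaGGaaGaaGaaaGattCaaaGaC
Ube2v2: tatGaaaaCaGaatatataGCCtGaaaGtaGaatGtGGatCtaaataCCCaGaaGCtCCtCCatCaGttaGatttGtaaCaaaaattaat
C1d: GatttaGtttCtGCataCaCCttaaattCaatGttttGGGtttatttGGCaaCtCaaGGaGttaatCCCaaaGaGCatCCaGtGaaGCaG
Adgrb2 lies at chr4:129984870-130022633 on the plus strand, and 67 of its 90 bases shown are G or C (the transcript has 63.1%). Bcan lies at chr3:87987531-88000230 on the minus strand, with 45 of 90 (transcript 60.7%). Ube2v2 lies at chr16:15552077-15595773 on the minus strand, with 28 of 90 (transcript 35.1%). C1d lies at chr11:17257579-17269176 on the plus strand, with 34 of 90 (transcript 36.0%). The window of Bcan shows that a central stretch can differ from its whole transcript. Among the 10 named higher genes, 9 had a GC content above the median of tested genes, 49.3%, and among the 9 lower genes with a transcript 4 were above it and 5 below.

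An offset for GC content in the fit was chosen after the gradient was seen. It takes out each library's trend on GC content, so the gap between the outer quartiles, −0.01, was near 0 by construction. With the offset edgeR called 0 genes (720 at an unadjusted p under 0.05). By quartile of length, from shortest to longest, the median log2 fold change was then −0.16, −0.02, 0.04 and 0.09. List medians moved by different amounts. The synaptic vesicle list had a median of 0.0090 with the offset, against 0.18 without it, motor proteins and adaptors 0.00035 against 0.17, and glycolytic enzymes 0.06 against 0.24. The medians of these 3 lists' own GC content were 51.6%, 48.8% and 53.2%, against 49.3% over all tested genes. Splicing proteins, whose members had a median GC content of 43.3%, had −0.24 against −0.29, nuclear non-coding RNAs −0.40 against −0.39, microglia markers −0.64 against −0.51 and postsynaptic density genes 0.29 against 0.35. Snap25, whose transcript has 38.7% GC, gave −0.37 against −0.71, and Gria2, at 36.8%, gave −0.03 against −0.44.

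Relative to crude libraries, sorted libraries of the SynSURF preparation differed from those of the sucrose gradient. A joint fit of the symbols that both tables hold tested the sorted-minus-crude log2 effect of the sucrose gradient minus that of SynSURF. Only the sucrose pairs were a block in it, and the SynSURF libraries were taken as unpaired. Of 10713 tested genes it called 1714 with a higher effect in the sucrose gradient (16%) and 14 with a lower one (0.131%). The median difference over all tested genes was 1.23, made up of a median effect of 0.05 in the sucrose gradient and −1.14 in SynSURF, and with library totals in place of TMM factors it was 1.93. Each difference was tested against 0 and not against that shift, so the counts of called genes and the adjusted p-values include it. Differences are therefore to be read against that shift. Of the panel of 24 genes, 23 were tested, and 1 passed with a higher and 4 with a lower effect in the sucrose gradient. Gfap differed by 3.86 ± 1.26 (SE, adjusted p = 0.0365), with effects of 0.70 in the sucrose gradient and −3.15 in SynSURF. Mbp differed by −3.73 ± 0.71 (adjusted p = 0.00146), with effects of −0.24 in the sucrose gradient and 3.49 in SynSURF, and Mobp by −3.90 ± 0.71 (adjusted p = 0.00135), with −0.23 in the sucrose gradient and 3.67 in SynSURF. Mbp and Mobp were thus far higher in sorted than in crude SynSURF libraries, and in the sucrose gradient they lay close to the crude level of that preparation. For Mobp the crude levels were themselves unlike in that fit, at 35.8 to 79.2 CPM in the sucrose gradient against 473 to 1163 CPM in SynSURF. For Mbp they were 2499 to 4984 CPM against 1514 to 4814 CPM. Fth1 differed by −3.42 ± 0.80 (adjusted p = 0.00441) and Rn45s by −6.39 ± 1.57 (adjusted p = 0.00643). Snap25, at −1.60 ± 0.78 (adjusted p = 0.168), Syt1, at 3.53 ± 1.25 (0.0521), and Camk2a, at 0.29 ± 1.56 (0.851), did not pass. Relative to the median difference, however, Snap25 stood at −2.83, farther from it than Gfap, at 2.63. Whether a gene differed from that median was not tested. Syt1 did pass with no pair block (adjusted p = 0.041) and with library totals (0.023). With library totals 4 panel genes passed with a higher effect, adding Syt1, Gria2 (0.0234) and Cx3cr1 (0.0207) to Gfap, and 4 with a lower one, while with no pair block 2 passed with a higher and 4 with a lower effect.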

How the data were processed

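Per the labels' protocols, a Repli-g WTA single cell kit amplified the RNA, and a 10x Genomics workflow gave the mRNA libraries. The authors deposited estimated counts of reads per gene symbol. Per the submitters' processing notes, HISAT2 and fastp were used with GRCm39 and GRCm38, without a stated role. What counted the reads, with which annotation and strand setting, is not given in the sources used here. Of 146658 values in the 6 libraries, 4660 were not whole, and all were rounded. No mt- symbol is in the table used. Left out were 44 further per-sample columns.

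On the rounded counts, edgeR 4.0.16 in R 4.3.3 (quasi-likelihood test, TMM factors, filterByExpr, pair as a block) compared sorted with crude libraries. Genes were called at 0.05 after Benjamini-Hochberg adjustment. Levels are CPM scaled with TMM factors, within-pair ratios are of log2 CPM with a prior count of 2, and log2 fold changes are given ± SE. Pairing was checked by the correlation of deviations from the group means, which was 0.336, 0.473 and 0.323 for same-numbered libraries and −0.355 to 0.0177 for different numbers. Genes named were those past the threshold with a mean of at least 10 CPM, filled to 10 per direction with genes of at least 50 CPM and 1 direction in 3 of 3 pairs, ordered by their smallest within-pair ratio. To these were added the 2 members of highest mean CPM of each of 27 gene lists and a panel of 24 genes. Values are given for 58 of the 88 genes so taken, and for 5 others that DESeq2 called. Some genes that this rule takes are left out of the text. The genes and lists were chosen with earlier results of these data known. Alternatives were no replicate block, DESeq2 size factors, library totals, the DESeq2 1.42.0 Wald test, limma 3.58.1 voom, no filter, a minimum mean of 5 CPM, Rn45s removed, each pair left out and, added after seeing the data, a GC offset. The edgeR script was tested on simulated data.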

Additional observations from a re-analysis of the deposited data

Results flagged for a closer look

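For 5 panel genes the sorted-minus-crude log2 effect of the sucrose gradient differed from that of SynSURF. The difference itself was tested against 0 (edgeR quasi-likelihood contrast, adjusted over 10713 genes). The median difference was 1.23, and no test was made against that median. Gfap differed by 3.86, or 2.63 above that median, and by 4.54 with library totals. Its SynSURF level ran between 0 and 29.6 CPM in sorted libraries, with 5 of 10 at 0, against 34.4 to 182 CPM in crude libraries. Mbp differed by −3.73 (−3.11 with library totals), and its SynSURF level ran between 9404 and 71320.0 CPM in sorted libraries, against 1514 to 4814 CPM in crude libraries. Mobp differed by −3.90 (−3.24 with library totals), with 2764 to 21329 CPM in sorted and 473 to 1163 CPM in crude SynSURF libraries. Fth1 differed by −3.42 (−2.78 with library totals), with 8863 to 70216 CPM in sorted and 1727 to 7620 CPM in crude SynSURF libraries. Rn45s differed by −6.39 (−5.42 with library totals), with 8752 to 1238610 CPM in sorted and 896 to 6841 CPM in crude SynSURF libraries. These CPM are scaled with TMM factors and are not shares of a library's counts. The direction of these 5 was the same under TMM factors, library totals and no pair block. The 2 tables were made separately, and the part of depth and of the Rn45s share in these differences was not tested.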

How the results depend on the processing

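The number of called genes depended on the tool and filter. Against 0 higher and 1 lower, the counts were 45 and 21 with the DESeq2 Wald test, 96 and 43 with no filter, 1 and 3 with a minimum mean of 5 CPM, and 0 and 0 with the GC offset. Without the replicate block they were 0 and 0. With voom, DESeq2 size factors, library totals or Rn45s removed they were 0 and 1. Leaving out 1 pair gave 0 to 29 higher and 0 to 10 lower genes, the most without pair 3 and none without pair 2. The difference in genes detected was 401 without thinning, against 164. For the difference from SynSURF, library totals gave 2827 genes with a higher effect and no replicate block gave 32 with a lower one. The causes were not tested. Genes near 0 changed sign. With the GC offset the log2 fold change was −0.14 for Syn1, −0.00045 for Sparcl1, 0.14 for Rian and 0.15 for Hnrnpa3. With each pair left out in turn it ran between −0.18 and 0.53 for Syn1, −0.43 and 0.051 for Arc, −0.64 and 0.098 for Aqp4, −0.54 and 1.39 for Cx3cr1, −0.24 and 0.74 for Rn45s, −0.28 and 0.0017 for Syt11, −0.11 and 0.21 for Sparcl1, −0.67 and 0.049 for Cox4i1, −0.31 and 0.068 for Hnrnpa3, and −0.56 and 0.040 for Ttr. With no replicate block it was −0.016 for Cx3cr1 and −0.049 for Sparcl1, and for Sparcl1 also −0.0073 with DESeq2 size factors, −0.0073 with the Wald test and −0.0056 with the 5 CPM minimum. With 3 pairs and a median standard error of 0.434, changes of low-count genes were not detectable at this depth unless large.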

Other observations

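At the deposited depths, with no thinning, 52 genes had a count in every sorted and in no crude library, of which 0 had enough counts to be tested, and the highest mean among them was 14.8 CPM. The opposite held for 16 genes, of which 1, Pcdhga11, was tested. The 2 libraries with the fewest counts, 1844679 and 1911669, were crude ones, and the part of depth in these counts was not tested. Among the 10589 tested genes, 303 (2.86%) had over 50% of their summed CPM in 1 library.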
